A study of Arabidopsis thaliana with 24 samples.

Results

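AT5G64870, which encodes a flotillin-like protein, and AT3G28580, which encodes an AAA-type ATPase, are known as marker genes of the response to singlet oxygen in the Arabidopsis flu mutant. Both are taken by locus identifier from what is known of the flu mutant, and each had 1 probe set that listed no other gene. They are 2 of the 13042 genes that had a probe set of their own among the 22217 probe sets measured. Their transcripts were followed in 4 genotypes and at 3 times of first light.

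Singlet oxygen is an excited form of oxygen that forms in chloroplasts when light strikes free tetrapyrroles such as protochlorophyllide and protoporphyrin IX. FLU is a negative regulator of tetrapyrrole synthesis, and dark-grown flu seedlings accumulate protochlorophyllide, which sensitises singlet oxygen formation as soon as they are lit. The released oxygen starts a nuclear transcription programme that depends in part on the plastid proteins EXECUTER1 and EXECUTER2, and both marker genes were described as early members of it. Flotillins are membrane proteins that gather in microdomains of the plasma membrane, and AAA-type ATPases use ATP to remodel proteins and complexes. The ferrochelatases FC1 and FC2 insert iron into protoporphyrin IX to make haem.

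Whole 4-day-old seedlings of the ecotype Col-0 were grown for 4 days in the dark at 22 °C and then placed in white light of 120 µmol m-2 s-1 for 0, 30 or 120 min. Compared with the wild type (wt) were fc2-1 and fc1-1, mutants of the ferrochelatase genes (fc2 and fc1 in what follows), and flu, whose label names no allele. Dark growth and light were the same for all genotypes, so wt also received the light. A pair of arrays, labelled as biological replicates, stood for each of the 12 combinations of genotype and time, 24 arrays in all. The labels say nothing further on where the replicates came from, so the p-values measure the spread between these arrays only. Of the 3 genes FC1, FC2 and FLU, 0 had a probe set naming them alone, so the genotype labels were not checked against their transcripts. Array medians lay between 5.98 and 6.23 on the log2 scale.

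In flu and in fc1 the AT5G64870 transcript rose within 30 min of light, and it stayed high at 120 min. In fc2 its level did not pass the test at either time, and in wt it passed only at 120 min, with a small rise. Before light, on the log2 signal scale, the arrays read 5.67 and 5.69 in wt, 5.77 and 5.71 in fc2, 5.77 and 5.76 in flu, and 5.99 and 5.78 in fc1. All 8 dark arrays thus lay between 5.67 and 5.99. At 30 min the readings were 5.76 and 5.76 in wt and 6 and 5.6 in fc2, against 7.78 and 7.58 in flu and 7.7 and 7.71 in fc1. All 4 flu and fc1 arrays lay above all 4 wt and fc2 arrays, with a gap wider than any difference between replicates of this gene. At 120 min the readings were 6.03 and 6.38 in wt, 5.6 and 5.89 in fc2, 8.31 and 8.5 in flu, and 7.94 and 7.8 in fc1. The flu arrays were then the highest, the fc1 arrays came next, and the fc2 arrays lay below both wt arrays. Replicates differed by 0.17 in the median group and by 0.4 in the most variable one, fc2 at 30 min.

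**Figure D1:**
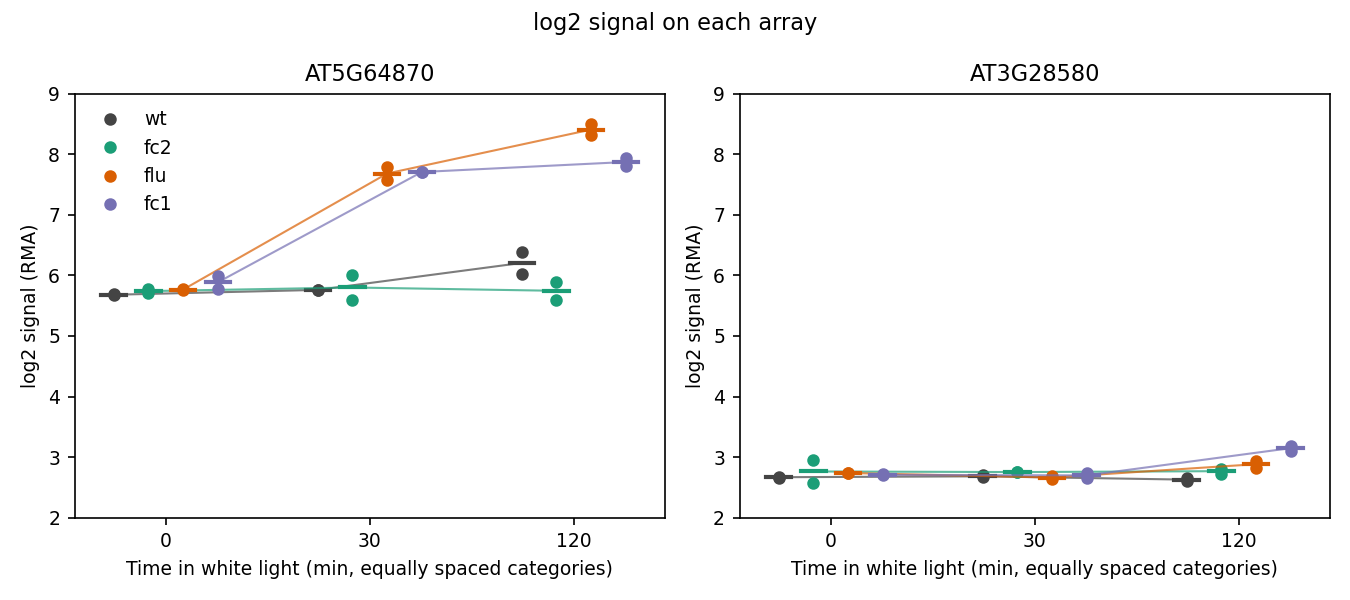
Deposited log2 signal of AT5G64870 and AT3G28580 on each of the 24 arrays, by genotype, against time in white light (min, drawn as equally spaced categories). Points are arrays, bars are group means and lines join the means of a genotype. For AT5G64870 the flu and fc1 arrays in the light lie between 7.58 and 8.5 and all other arrays between 5.6 and 6.38. For AT3G28580 all arrays lie between 2.58 and 3.19.

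The light response of AT5G64870 was tested with limma over all 12 groups, with p-values adjusted over all probe sets, and a probe set is called where the adjusted p is under 0.05. In flu it rose by 1.92 ± 0.14 (log2 difference ± SE, 2 arrays per group, adjusted p = 1.05e-08) within 30 min, which is 3.77-fold, and by 2.64 ± 0.14 (adjusted p = 2.53e-11) within 120 min, or 6.23-fold. These comparisons called 48.1% and 46.1% of all probe sets, so a call alone sets the gene apart little in flu, but its size ranked 88th and 174th from the top among 22217. Between 30 and 120 min it rose further in flu by 0.72 ± 0.14 (adjusted p = 0.00059), in a comparison that called 37% of all probe sets.

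In fc1 it rose by 1.82 ± 0.14 (adjusted p = 5.59e-08), 3.53-fold, within 30 min, where 7.22% of all probe sets were called, and its rise ranked 121st. The change over 120 min was 1.99 ± 0.14 (adjusted p = 3.36e-09), 3.96-fold, with 34.4% of all probe sets called and rank 351. From 30 to 120 min the fc1 value of 0.17 was not called (95% interval -0.13 to 0.46, adjusted p = 0.469), while 26.6% of all probe sets were.

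In fc2 the differences were 0.06 at 30 min (95% interval -0.24 to 0.36, adjusted p = 0.987) and 0.01 at 120 min (-0.29 to 0.30, adjusted p = 0.987), both against the dark. From 30 to 120 min the fc2 difference was -0.06 (adjusted p = 0.867). In fc2 these comparisons called 3.02%, 24.8% and 19.4% of all probe sets. The intervals reach up to 0.36, well below the rises measured in flu and fc1.

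In wt the difference at 30 min was 0.08 (95% interval -0.22 to 0.38, adjusted p = 0.86), with 6.41% of all probe sets called. By 120 min the transcript had risen by 0.53 ± 0.14 against the dark (adjusted p = 0.00758), which is 1.44-fold, and by 0.45 ± 0.14 against 30 min (adjusted p = 0.0242). Those comparisons called 30.7% and 27.4% of all probe sets. Without wt at 120 min replicate 2 the wt rise from the dark was 0.35 and no longer called, with 1 array left in that group. That array read 6.03, above all wt arrays at 0 and 30 min.

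Set directly against wt, flu and fc1 were higher at both times in the light, and fc2 was called only at 120 min, as lower. No mutant differed measurably from wt before light. In the dark AT5G64870 differed from wt by 0.06 in fc2 (adjusted p = 0.995), 0.09 in flu (adjusted p = 0.877) and 0.21 in fc1 (95% interval -0.09 to 0.50, adjusted p = 0.402). The dark comparisons called 0.036%, 3.32% and 2.74% of all probe sets in that order. After 30 min flu was 3.78-fold above wt (1.92 ± 0.14, adjusted p = 1.32e-08, 40.4% of all probe sets called) and fc1 was 3.85-fold above wt (1.95 ± 0.14, adjusted p = 5.78e-07, 18.4% called). Among all probe sets these differences ranked 24th and 8th from the top. In fc2 the difference from wt was 0.04 (95% interval -0.26 to 0.34, adjusted p = 0.945), in a comparison that called 1.52% of all probe sets.

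After 120 min flu was 4.6-fold above wt (2.2 ± 0.14, adjusted p = 3.53e-10, rank 113, 46.6% of all probe sets called). In fc1 the level was 3.17-fold above wt (1.67 ± 0.14, adjusted p = 8.4e-07, rank 37, 9.25% called). In fc2 it lay below wt by a difference of -0.46 ± 0.14 (adjusted p = 0.0305), or 1.38-fold lower, with 17.2% of all probe sets called. That call was lost without wt at 120 min replicate 2 (-0.29) or without fc2 at 120 min replicate 1 (adjusted p up to 0.294). All these comparisons share the wt arrays, and the light responses of a genotype share its dark arrays.

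The difference between the light response of each mutant and that of wt was tested as an interaction. At 30 min it was 1.84 ± 0.20 in flu (adjusted p = 3.67e-06, 27.9% of all probe sets called) and 1.74 ± 0.20 in fc1 (adjusted p = 0.000335, rank 11, 0.189% called). In fc2 it was -0.02 (adjusted p = 0.999, 0.441% called). At 120 min it was 2.12 ± 0.20 in flu (adjusted p = 1.18e-07, 38.3% called) and 1.46 ± 0.20 in fc1 (adjusted p = 0.000529, 1% called). The fc2 response fell short of the wt response by a difference of -0.52 (95% interval -0.94 to -0.10), which was not called over all probe sets (adjusted p = 0.125, 9.21% called). In fc1 at 30 min 42 of 22217 probe sets were called, and AT5G64870 was among them.

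The mutants were also compared with each other. Before light the differences were -0.03 for fc2 minus flu (adjusted p = 0.969), 0.12 for fc1 minus flu (adjusted p = 0.61) and 0.15 for fc1 minus fc2 (adjusted p = 0.684), and these comparisons called 2.31%, 13.7% and 1.39% of all probe sets. At 30 min flu and fc1 did not differ in this transcript beyond their spread (0.03, 95% interval -0.27 to 0.32, adjusted p = 0.888), although 57.6% of all probe sets were called between these genotypes. At the same time fc2 lay 3.68-fold below flu (-1.88 ± 0.14, adjusted p = 2.4e-08, 47.9% called). The fc1 level was 3.75-fold above that of fc2 (1.91 ± 0.14, adjusted p = 2.02e-07, 6.81% called). At 120 min fc1 lay 1.45-fold below flu (-0.54 ± 0.14, adjusted p = 0.00371, 50.6% called). The fc2 level was 6.32-fold below flu (-2.66 ± 0.14, adjusted p = 5.16e-11, 37.5% called), and fc1 was 4.36-fold above fc2 (2.13 ± 0.14, adjusted p = 7.46e-09, 27.3% called). The ferrochelatase mutants thus differed from each other in this transcript at both times in the light.

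**Figure D2:**
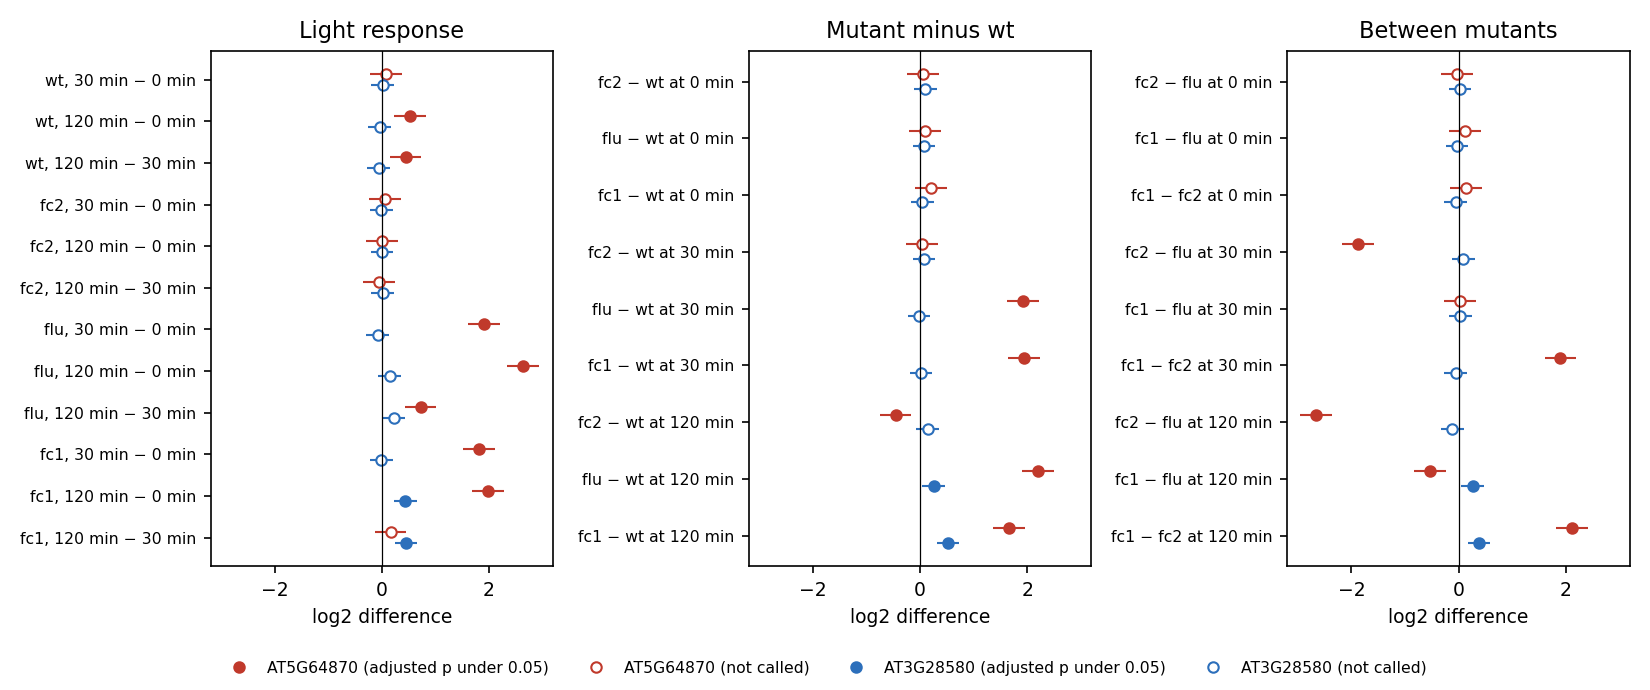
Log2 differences of AT5G64870 (red) and AT3G28580 (blue) with 95% intervals, for the light responses, each mutant minus wt, and the mutants against each other. Filled points had an adjusted p under 0.05. In flu and fc1 the red points of the light responses from 0 min lie between 1.82 and 2.64, and those of fc2 lie between 0.01 and 0.06.

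Ordered by group mean, AT5G64870 fell into a low range and a high range. The low range ran from wt at 0 min (5.68) to wt at 120 min (6.21) and held every dark group and every fc2 group. The high range ran from flu at 30 min (7.68) over fc1 at 30 min (7.71) and fc1 at 120 min (7.87) to flu at 120 min (8.41), and 1.2 separated the nearest arrays of the ranges. Within the low range most neighbours in the order overlapped, with wt at 0 min below fc2 at 0 min by 0.02 and fc1 at 0 min below wt at 120 min by 0.04. In the high range flu and fc1 at 30 min overlapped, and the arrays of the later groups did not. With 2 arrays against 2 an exact permutation test cannot go below p = 0.333, so the calls rest on the spread that limma pools over all groups.

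The AT3G28580 probe set gave a different picture: it was among the dimmest on every array and moved little. Before light its log2 signal was 2.68 and 2.66 in wt, 2.58 and 2.95 in fc2, 2.74 and 2.74 in flu, and 2.72 and 2.7 in fc1. At 30 min the arrays read 2.67 and 2.7 in wt, 2.76 and 2.75 in fc2, 2.64 and 2.69 in flu, and 2.74 and 2.66 in fc1. No group stood out at either time. At 120 min the arrays read 2.6 and 2.66 in wt, 2.73 and 2.81 in fc2, 2.94 and 2.83 in flu, and 3.11 and 3.19 in fc1. Only the fc1 arrays at 120 min exceeded 3, and they lay above all other arrays.

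On the 24 arrays this probe set lay between the 0.32nd and the 9.34th percentile of all probe sets, while that of AT5G64870 lay between the 43.5th and the 81.4th. Its highest reading, 3.19, was never exceeded on any array by 669 probe sets (3.01%), its own included. Whether so dim a probe set measures its transcript was not tested, as detection calls were not analysed here. The percentiles place the probe sets on the arrays and do not compare the amounts of the transcripts, since probe sets differ in brightness.

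In flu, the genotype for which this gene is known as a marker, its difference from the dark was -0.08 at 30 min (95% interval -0.29 to 0.14, adjusted p = 0.566) and 0.15 at 120 min (-0.07 to 0.36, adjusted p = 0.269). From 30 to 120 min the flu value was 0.22 (adjusted p = 0.0965). Its level at 120 min was above that of wt by 0.26 ± 0.10 (adjusted p = 0.0459), or 1.19-fold. This call was lost in 20 of the 24 fits that left out 1 array and in most other settings tried.

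In fc1 the AT3G28580 signal rose from 0 to 120 min by 0.44 ± 0.10 (adjusted p = 0.002), 1.36-fold, and from 30 to 120 min by 0.45 ± 0.10 (adjusted p = 0.00237). At 120 min it was above wt by 0.52 ± 0.10 (adjusted p = 0.00394), above flu by 0.27 ± 0.10 (adjusted p = 0.0355) and above fc2 by 0.38 ± 0.10 (adjusted p = 0.00849). The interaction with wt at 120 min, 0.48 ± 0.14, was not called (95% interval 0.18 to 0.78, adjusted p = 0.145). Of the 669 probe sets never above 3.19, 14 (2.09%) were called between fc1 at 120 min and the dark and 2 (0.299%) between fc1 and wt at 120 min. That set was cut at the highest reading of AT3G28580, itself an fc1 array at 120 min. Dim probe sets that reached higher were thus left out, so these shares cannot show how unusual the fc1 calls are. The call against wt missed the threshold without fc1 at 120 min replicate 2 (adjusted p = 0.0553), and scaling to reference genes lowered that difference to 0.35 (adjusted p = 0.0806).

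In fc2 and wt the probe set showed differences of 0.01 (95% interval -0.21 to 0.22) and -0.04 (-0.25 to 0.17) between 120 min and the dark, neither of them called. Over the 36 comparisons AT5G64870 was called in 21 and AT3G28580 in 6. The comparisons called between 0.036% and 57.6% of all probe sets and reuse the same arrays, so these counts are a description.

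The other genes of the singlet oxygen response are a background against which the members can be read. Of a list of 23 genes known from that response, 11 had a probe set annotated to them alone, 9 besides the members. The annotation named no gene for 8564 of the 22217 probe sets. The listed genes left out may be among these, so the counts cover only part of the list. At 120 min all 9 rose against the dark in each of the 4 genotypes, wt and fc2 included. Their median log2 change was 1.53 in wt, 1.79 in fc2, 3.38 in flu and 3.19 in fc1, beside medians over all probe sets between -0.04 and 0.01. Of all probe sets 11.9% were called higher in wt, 10.8% in fc2, 24.3% in flu and 15.3% in fc1. At 30 min 6 rose in wt, 5 in fc2, 5 in flu and 8 in fc1, with medians of 1.24, 0.70, 1.22 and 1.85 beside -0.02 to 0.06 over all probe sets. The share of all probe sets called higher at 30 min was 3.57% in wt, 1.92% in fc2, 24.2% in flu and 3.68% in fc1. The list was put together with earlier results of these data known, so these counts are a description.

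Against this list AT5G64870 sat at different places in different genotypes. In fc2 at 120 min the 9 others rose by 1.15 to 4.78 and AT5G64870 by 0.01, below all of them. In wt at 120 min they rose by 0.82 to 2.77, again all above the 0.53 of AT5G64870. In flu at 30 min it exceeded 7 of the 9, which ranged from 0.41 to 2.84, and in fc1 at 30 min it exceeded 4. At 120 min it exceeded 2 of 9 in flu and 3 of 9 in fc1. AT3G28580 lay below all 9 in 7 of the 8 light responses from 0 min, and above 1 of them in wt at 30 min.

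**Figure D3:**
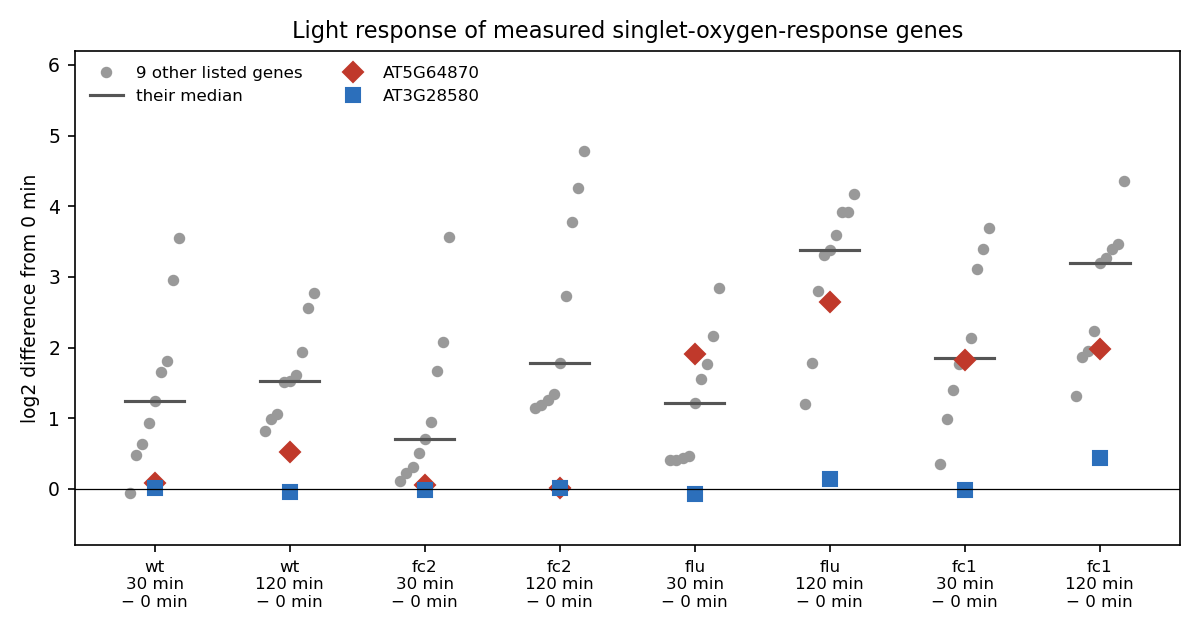
Log2 difference from 0 min, at 30 and 120 min of light in each genotype, for the 9 other measured singlet-oxygen-response genes (grey points, horizontal line their median), AT5G64870 (red diamond) and AT3G28580 (blue square). In fc2 at 120 min both members lie at 0.01 and the grey points between 1.15 and 4.78.

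Named members of the list followed different courses. STZ, a zinc-finger transcription factor also called ZAT10, rose within 30 min by 3.55 in wt, 3.56 in fc2, 2.84 in flu and 3.69 in fc1. At 120 min STZ was above wt by 1.47 in fc2 (adjusted p = 5.76e-05), 2.02 in flu (adjusted p = 1.85e-07) and 0.81 in fc1 (adjusted p = 0.0215). Its dark means were 5.54 in wt, 5.52 in fc2, 6.155 in flu and 5.86 in fc1. As an interaction, its response over 120 min exceeded that of wt by 1.485 in fc2 (adjusted p = 0.00272) and 1.4 in flu (adjusted p = 0.00077). In fc1 the interaction of 0.49 was not called (adjusted p = 0.649). AT1G05575 was above wt at 120 min by 2.32 in fc2 and 2.08 in flu, with adjusted p of 3.79e-07 and 1.45e-07, while its fc1 value of 0.24 was not called (adjusted p = 0.507). AT1G19020 was higher than in wt in all 3 mutants at 120 min, by 1.18 in fc2, 2.40 in flu and 1.84 in fc1. AT5G13200 was above wt at 120 min by 2.27 in flu (adjusted p = 9.92e-10) and 1.13 in fc1 (adjusted p = 0.000204), and its fc2 difference of 0.17 was not called (adjusted p = 0.55). AT2G41730, whose probe set is of a kind that can bind related transcripts, was higher than in wt at 120 min by 1.68 in fc2, 2.07 in flu and 1.53 in fc1. It was also higher in flu before light, by 1.26.

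Counted over the list against wt at 120 min, 4 of the 9 others were higher and 1 lower in fc2 (median 0.35), 7 higher and 1 lower in flu (median 2.07), and 6 higher in fc1 (median 1.13). The medians over all probe sets in those comparisons were 0.01, 0.06 and -0.01. Of all probe sets 9.71% were higher and 7.53% lower in fc2, 28.4% and 18.2% in flu, and 5.71% and 3.54% in fc1. At 30 min 3 were lower in fc2, 2 higher and 3 lower in flu, and 4 higher in fc1. Over all probe sets 0.986% were lower in fc2, 21.4% higher and 19% lower in flu, and 9.68% higher in fc1, so the flu count of higher genes was near the share of all probe sets. The flu median against wt at 30 min was -0.07, where AT5G64870 stood at 1.92.

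EX1, the gene of EXECUTER1, was the only one of 6 listed singlet-oxygen signalling genes with a probe set annotated to it alone. EX1 fell in flu by 0.45 at 30 min (adjusted p = 0.00645) and by 0.39 at 120 min (adjusted p = 0.0152), and it rose at 120 min by 0.41 in wt (adjusted p = 0.017) and by 0.49 in fc1 (adjusted p = 0.00493). At 120 min EX1 was lower than in wt in fc2 (-0.44, adjusted p = 0.02) and in flu (-0.77, adjusted p = 4.84e-05). Where AT5G64870 was high, EX1 was thus below wt in flu and not called against wt in fc1 (0.26, adjusted p = 0.202).

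Of 10 listed genes of hydrogen peroxide and general oxidative stress 3 were measured. GRX480, a glutaredoxin, was higher than in wt at 120 min by 2.88 in fc2, 3.87 in flu and 0.81 in fc1. GSTU25, a glutathione transferase, was higher by 1.29 in fc2 and 1.73 in flu, with adjusted p of 8.73e-05 and 4.11e-07, and its fc1 value was -0.17 (adjusted p = 0.62). AT2G21640 was higher by 1.32 in fc2 (adjusted p = 1.33e-05), with uncalled values of -0.18 in flu and -0.12 in fc1. At 120 min of light all 3 rose in fc2 against the dark, where 10.8% of all probe sets were called higher. AT5G64870 did not pass the test there. The mean levels of GRX480 and GSTU25 were also higher at 120 min than in the dark in wt, flu and fc1. The mean of AT2G21640 in flu was 8.8 in the dark and 7.75 at 120 min.

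The families of the members were only partly covered by probe sets annotated to 1 gene, which is what measured means here. Of 3 flotillin genes AT5G64870 was the only one so measured. The other genes may be on the array among the probe sets with no listed gene or several. Of 23 listed AAA ATPase relatives 13 were measured, and of the 12 besides AT3G28580 those called higher and lower at 120 min against the dark numbered 3 and 3 in wt, 3 and 3 in fc2, 4 and 1 in flu, and 5 and 3 in fc1. In the same comparisons 30.7%, 24.8%, 46.1% and 34.4% of all probe sets were called in either direction, so the flu count was near that share. The median changes of the 12 lay between 0.12 and 0.29. AT1G43910 rose by 1.76 in flu (adjusted p = 7.15e-08), 1.40 in fc1 (adjusted p = 3.11e-06), 0.79 in fc2 and 0.66 in wt. AT3G28540, which carries a nearby locus number, rose at 120 min in every genotype, by 0.33 in flu to 0.55 in wt. Of 13 listed jasmonate genes 0 had a probe set annotated to them alone, so their transcripts were not followed here. AT5G64870 lies on chromosome 5 and AT3G28580 on chromosome 3, and no gene annotated by RefSeq overlaps either of them.

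The 5 genes whose profile over the 12 group means was most like that of AT5G64870 were found by the mean absolute difference of the centred profiles, among 13170 probe sets with 1 gene each. They were AT5G57510 (0.217 log2 units), AT1G24140 (0.291), AT2G18690 (0.346), AT2G32140 (0.358) and AT1G61360 (0.358). AT5G57510 rose at 30 min by 1.63 in flu and 1.65 in fc1, and at 120 min by 2.40 and 1.96. Unlike AT5G64870 it was also called in fc2 at 120 min (0.73, adjusted p = 0.00511). AT1G24140 rose at 30 min by 1.93 in flu and 1.90 in fc1, with values of 0.14 in fc2 and 0.17 in wt at 120 min that were not called. AT2G18690 rose by 3.35 in flu and 2.15 in fc1 at 120 min, and by 0.81 in fc2 and 0.65 in wt. AT2G32140 had its highest value in fc1 at 30 min, a rise of 2.52, and was down to 0.87 above the dark at 120 min. AT1G61360 rose at 120 min by 2.48 in flu and 1.64 in fc1. Genes were picked here for their likeness, so their changes are a description.

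**Figure D4:**
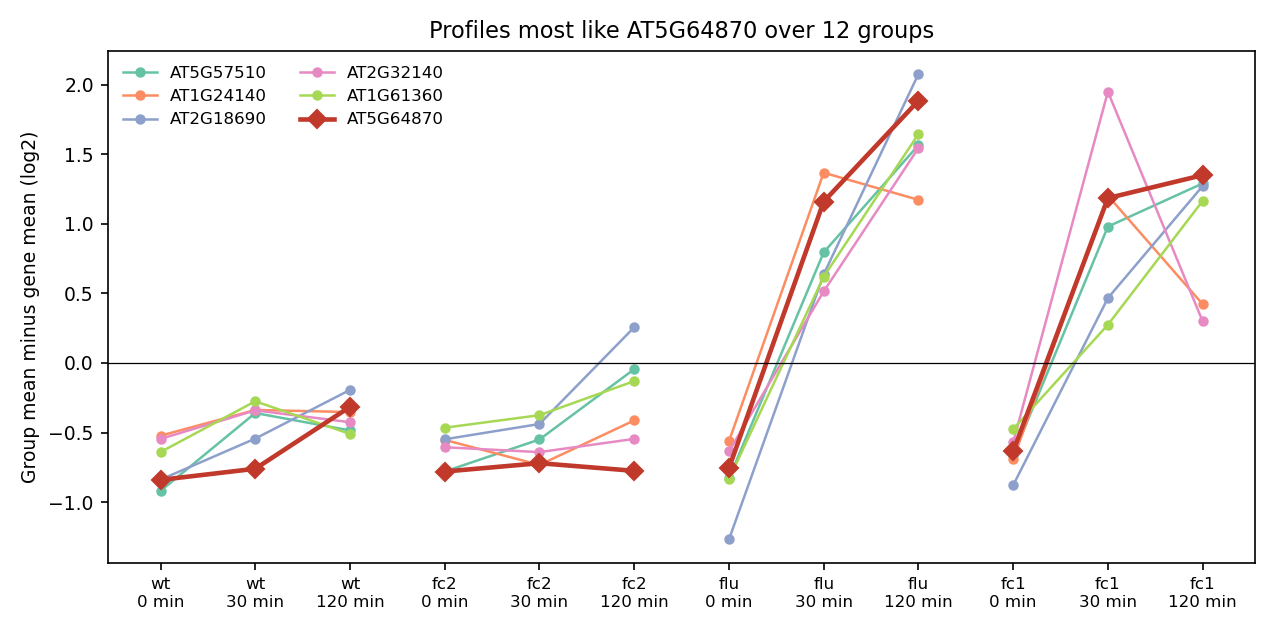
Group means minus the mean over all 12 groups (log2) for AT5G64870 (thick red line) and the 5 genes with the most similar profiles, by genotype and time of light. All 6 genes lie above 0 in flu and fc1 in the light and below 0 in every dark group.

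The genes nearest to AT3G28580 by the same measure were flat: AT3G31330 (0.061), AT3G59630 (0.063), AT3G28120 (0.065), AT1G65220 (0.067) and AT5G28880 (0.067). Their group means spanned only 0.21 to 0.41 from lowest to highest. The members themselves were 0.87 apart, and AT3G28580 ranked 2746th in likeness to AT5G64870.

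Markers of other tissues moved with some groups. Seedlings are mixtures of cell types, so fewer cells of a type and less RNA per cell cannot be told apart. All 4 genes listed for seed maturation were measured (OLEO3, PAP85, M17 and M10), and their mean log2 level ranged from 5.29 to 9.62 over the arrays. They did not all move together: in flu OLEO3 fell from 9.85 in the dark to 6.97 at 120 min. It also fell in the other genotypes, from 10.3 to 8.175 in wt, 10.14 to 8.76 in fc2 and 10.18 to 8.385 in fc1. The group means of PAP85, M17 and M10 were higher in flu at 120 min than in the dark, with wide gaps between replicates. In fc1 at 30 min the mean of the 4 genes was 8.84 on one array and 5.57 on the other, while AT5G64870 read 7.7 and 7.71. In fc2 at 30 min the means were 7.95 and 5.58 beside AT5G64870 at 6 and 5.6, and in wt at 120 min they were 5.5 and 7.88 beside 6.03 and 6.38. With this mean as a covariate the difference of AT5G64870 from wt at 30 min was 1.89 in flu and 2.03 in fc1, and at 120 min it was -0.48 in fc2.

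The mean of the 3 measured photosynthesis genes of 7 listed (RCA, PRK and SBPASE, all of carbon fixation) was 11.7 on both flu arrays in the dark, 10.2 and 10.5 at 30 min and 8.18 and 8.57 at 120 min. In fc1, where AT5G64870 rose as well, it was 12 on both arrays at 30 min and 12.5 and 12.6 at 120 min. At 120 min the mean was 12.3 and 12.6 in wt, and 11.4 and 11.5 in fc2, where AT5G64870 stayed low. The 2 measured root genes of 6 listed (EXPA7 and GH9C1) averaged 4.28 to 5.58, highest in flu at 120 min. The part of these markers in the flu values was not tested.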

How the data were processed

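Biotin-labelled cRNA of whole seedlings was hybridised to 24 Affymetrix arrays, per the labels' protocols. The authors deposited log2 signals made with RMA, per the submitters' processing notes, and its version is not given in the sources used here. RMA as usually run corrects the background, normalizes between arrays and summarises the probes of a set, so a change is relative to the other probe sets of the array. No further normalization was applied.

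All 22217 probe sets were tested, 0 of them AFFX controls. The platform annotation gave 1 gene to 13171, several to 482 and none to 8564, with symbols updated through the TAIR10.1 gene table, which was used for names, chromosomes and gene order only. A gene counts as measured, or as having a probe set of its own, only where a probe set was annotated to it alone. Genes that do not count may still be on the array. The deposited table names no genome build, so no coordinates are given.

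Each of the 12 groups was given its own mean in 1 linear fit of the 24 arrays (limma 3.58.1 in R 4.3.3, variances moderated by empirical Bayes). Two-sided p-values were adjusted over all probe sets by the Benjamini-Hochberg method within each of 36 comparisons, and called means an adjusted p under 0.05. Intervals are 95% intervals of the moderated fit. The fit was tested on simulated data for 1 comparison, fc1 at 30 min against 0 min. Of 200 probe sets changed by 1 log2 unit it recovered 94%, with 6 false calls. That test does not cover differences as small as those of AT3G28580. Tables and figures used Python 3.11.15, pandas 2.3.3 and matplotlib 3.10.9.

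The members, the gene lists and the tests were chosen with earlier results of these data known. Genes named were the members, the 5 most similar profiles of each, and of each list all measured genes, or, where over 6 were measured, up to 6 with the smallest p in flu between 0 and 120 min. Alternatives were scaling each array to AT2G28390 and AT4G34270, taken as reference genes, a filter that drops the 40% of probe sets with the lowest mean, robust moderation with a mean-variance trend, a replicate block, only the groups compared, array weights, the mean of the seed maturation genes as a covariate, leaving out each array in turn, and, for lists, any probe set that lists the gene.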

Additional observations from a re-analysis of the deposited data

Results flagged for a closer look

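The light response of AT5G64870 in flu and fc1 differed from that in wt by the test of the difference itself, the interaction of genotype and time in limma. At 30 min the flu response exceeded the wt response by 1.84 ± 0.20 on the log2 scale (adjusted p = 3.67e-06) and the fc1 response by 1.74 ± 0.20 (adjusted p = 0.000335). At 120 min the excess was 2.12 ± 0.20 in flu (adjusted p = 1.18e-07) and 1.46 ± 0.20 in fc1 (adjusted p = 0.000529). Every light-treated flu and fc1 array lay above every wt array. Outlying arrays were not looked for, as a group held 2 arrays.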

How the results depend on the processing

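For AT5G64870, 18 of its 21 called differences kept direction and call under all 31 settings, among them every rise in flu and fc1 from 0 min and every difference of flu or fc1 from wt in the light, and its 15 uncalled differences stayed uncalled. For AT3G28580, which the filter on dim probe sets removed, 2 of 6 called differences held under all 30 remaining settings. The replicate numbers gave no consistent pairing: over 66 pairs of groups the deviations of same-numbered arrays correlated at -0.54 to 0.4 (median -0.01), with 19 over 0.1. With 2 arrays per group the sign follows the numbering, so arrays that belong together under different numbers could not be told by this check. With the replicate block the AT3G28580 difference between flu and wt at 120 min was 0.26 (adjusted p = 0.0504), and it changed no other call of the members. With reference-gene scaling the median over all probe sets shifted by -0.34 to 0.34, and AT2G28390, a gene of that scaling, was itself called lower in flu at 30 min and fc1 at 120 min. The same scaling left AT3G28580 uncalled against wt at 120 min in flu (0.12, adjusted p = 0.478) and fc1 (0.35, adjusted p = 0.0806) and in fc1 against flu (0.23, adjusted p = 0.163), and turned fc1 minus flu at 30 min from an uncalled 0.04 to a called -0.31 (adjusted p = 0.0368). Fitting only the groups compared, with fewer arrays to estimate the spread, left uncalled AT5G64870 in wt at 120 min against 0 min (0.53, adjusted p = 0.0637) and against 30 min (0.45, adjusted p = 0.158) and in fc2 against wt at 120 min (-0.46, adjusted p = 0.187). It did the same for AT3G28580 at 120 min in flu against wt (0.26), fc1 against wt (0.52) and fc1 against flu (0.27), with adjusted p of 0.226, 0.162 and 0.117. Array weights came out equal for both arrays of each group, so they weighted groups and could not single out an array. They left uncalled the same differences except wt at 120 against 0 min, with adjusted p of 0.131 (0.45), 0.0851 (-0.46), 0.267 (0.26), 0.0687 (0.52) and 0.138 (0.27). The seed-maturation covariate lowered AT3G28580 in flu against wt at 120 min to 0.22 (adjusted p = 0.129).

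Leaving out 1 array at a time gave ranges of 0.35 to 0.7 for AT5G64870 in wt at 120 against 0 min, 0.27 to 0.62 against 30 min, and -0.64 to -0.29 for fc2 against wt at 120 min. At 120 min the AT3G28580 ranges were 0.2 to 0.31 for flu against wt, 0.48 to 0.56 for fc1 against wt, 0.21 to 0.32 for fc1 against flu and 0.34 to 0.42 for fc1 against fc2, each losing its call at least in 1 fit, the last without fc2 at 120 min replicate 1 or fc1 at 120 min replicate 2. The uncalled AT3G28580 value in flu from 30 to 120 min ranged from 0.17 to 0.28 and was called without either fc2 array of 0 min. Of the 9 other singlet oxygen response genes, 9 instead of 5 rose in flu at 30 min with reference scaling, 5 of the 6 left by the filter on dim probe sets instead of 8 of 9 rose in fc1 at 30 min, and 3 to 5 rose in fc2 at 30 min with 1 array left out (3 without either fc2 array of 0 min). Apart from what the settings' own construction gives, the cause of these changes was not tested. Only 2 arrays per group, and for AT3G28580 a signal near the array floor, limit the precision.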
